A study of Mus musculus with 13 samples.

Results

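TRAJ23, TRAJ27 and TRAJ37 are joining (J) gene segments of the T cell receptor α-chain locus, and they are the J genes of the α-chain clonotypes with the highest share of a library at 1.5, 3 and 7 months in rescued regulatory T (Treg) cells. A clonotype is 1 row of a deposited table, with its V gene, J gene and CDR3 bases, and members were all functional clonotypes, meaning those whose CDR3 reads through without a stop codon or frameshift, joined to any of these 3 genes. There were 9521 such clonotypes of 78521 functional clonotypes in the 13 libraries (12.1%), of which 3545 used TRAJ23, 3129 used TRAJ27 and 2847 used TRAJ37. Because the genes were picked from the sizes of their largest clones in 3 libraries, those sizes are given as a description and carry no test.

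TCRα transcripts were sequenced from rescued Treg cells sorted from pooled spleen and lymph nodes of male C57BL/6 mice of the Foxp3LSL/yCd4creERT2 genotype. In these mice a stop cassette silences Foxp3, the lineage-defining transcription factor of Treg cells, until a 4-hydroxytamoxifen-activated Cre expressed from the Cd4 locus removes it. All groups were given 4-hydroxytamoxifen once, at postnatal day 14, and no untreated or other-genotype library was compared here. The groups were 1.5 months after treatment (2 libraries, mice 8 weeks old), 3 months (4 libraries, 3.5 months old), 5 months (2 libraries, 5.5 months old) and 7 months (5 libraries, 7.5 months old), so that time after treatment and age cannot be told apart. The labels number replicates but do not say that each is a separate mouse, so that p-values measure the spread between these libraries.

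The α chain of a T cell receptor is made in the thymus by joining 1 of many V segments to 1 of many J segments. The CDR3 loop spans the junction and contacts the peptide held by the MHC molecule. Bases may be trimmed from both segment ends and untemplated bases added by the enzyme terminal transferase, so that a CDR3 made of germline bases alone can arise independently in many cells, whereas one with many added bases is made rarely.

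The germline segments show what each gene brings to the loop. They lie on the plus strand of mouse chromosome 14 (GRCm38, GENCODE annotation, gene type TR J gene), Traj37 at chr14:54181518-54181577, Traj27 at chr14:54192303-54192361 and Traj23 at chr14:54196081-54196140. In the lines that follow, capitals mark the bases that can enter the CDR3, up to and including the last codon of the loop.
TRAJ37: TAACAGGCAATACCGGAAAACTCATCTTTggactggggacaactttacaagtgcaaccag
TRAJ27: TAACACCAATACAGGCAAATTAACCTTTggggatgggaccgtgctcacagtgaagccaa
TRAJ23: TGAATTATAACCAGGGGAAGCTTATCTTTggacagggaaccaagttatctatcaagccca
The residues encoded are TGNTGKLIF for TRAJ37, NTNTGKLTF for TRAJ27 and NYNQGKLIF for TRAJ23. All 3 carry the tripeptide GKL (glycine, lysine, leucine), which 7 of the 43 J genes with functional clonotypes and a germline sequence in the annotation encode in this stretch. GKL was kept in 98.3% ± 0.771 of TRAJ23 clonotypes, 99.1% ± 0.429 of TRAJ27 clonotypes and 98.6% ± 1.10 of TRAJ37 clonotypes (SD, n = 13 libraries). The whole germline residue stretch was kept in 63.0% ± 3.65 of TRAJ37 clonotypes, against 47.3% ± 2.13 for TRAJ23 and 38.8% ± 3.08 for TRAJ27. Bases trimmed from the J end did not follow this order for TRAJ23 and TRAJ27. Their mean number was 1.16 ± 0.212 for TRAJ37, 1.92 ± 0.323 for TRAJ27 and 2.37 ± 0.190 for TRAJ23. A J stretch that began before the segment counted as negative. The medians were 1.42 ± 0.494, 2.15 ± 0.376 and 2.08 ± 0.277, close for TRAJ27 and TRAJ23.

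The largest clones are shown next, the 3 of each gene with the highest share of functional counts in any library, because they put these genes among the dominant clones. Capitals mark the bases from the J start given in the files onward, and lower-case letters are the bases before it. These capitals can hold bases that are not in the germline segment, with 1 base before the segment's start in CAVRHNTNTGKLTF and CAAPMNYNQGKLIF and 1 base unlike the germline in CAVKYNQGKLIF.
TRAJ37 clone with TRAV15-2-DV6-2: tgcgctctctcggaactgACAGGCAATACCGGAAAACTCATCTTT
TRAJ37 clone with TRAV12-2: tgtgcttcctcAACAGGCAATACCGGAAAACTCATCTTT
TRAJ37 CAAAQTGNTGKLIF: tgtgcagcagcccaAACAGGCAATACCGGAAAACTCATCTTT
TRAJ27 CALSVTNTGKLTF: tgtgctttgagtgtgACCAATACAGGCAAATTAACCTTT
TRAJ27 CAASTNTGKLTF: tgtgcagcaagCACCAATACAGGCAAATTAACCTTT
TRAJ27 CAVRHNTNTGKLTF: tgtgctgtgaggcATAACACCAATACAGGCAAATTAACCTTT
TRAJ23 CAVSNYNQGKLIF: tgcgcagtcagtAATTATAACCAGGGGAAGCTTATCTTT
TRAJ23 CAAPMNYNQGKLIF: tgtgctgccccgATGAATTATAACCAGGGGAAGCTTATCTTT
TRAJ23 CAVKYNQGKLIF: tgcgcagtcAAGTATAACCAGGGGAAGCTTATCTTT
Of the 9 clones, 5 had no base between the V and J positions given in the files (the TRAJ37 clone with TRAV15-2-DV6-2, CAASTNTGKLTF, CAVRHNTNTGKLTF, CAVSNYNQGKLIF and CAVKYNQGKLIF), although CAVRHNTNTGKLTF and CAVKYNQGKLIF each have a base in the J stretch that the germline lacks.

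The 13 libraries held 477052 to 882170 functional counts and 4828 to 7998 functional clonotypes each, so that 0 counts allows a share of up to 0.000340% to 0.000629%, counting error only. Whether a count is a read or a molecule is not given in the sources used here. Some libraries held the same clonotypes. Replicate 4 of 3 months shared 105 TRAJ23, TRAJ27 or TRAJ37 clonotypes (same V, J and bases) with 5 months replicate 1, which is 12.7% of its own and 16.3% of the other library's. It shared 113 with 1.5 months replicate 1 (13.7% of its own, 11.3% of the other's). As a share of the clonotypes found in either library of a pair, these were 7.71% and 6.60%, while the median over the 78 pairs was 1.71% and the third highest 3.19%. Of the 105, 49 had a share at least 100 times higher in 3 months replicate 4, and 65 had a single count in 5 months replicate 1. Of the 113, 33 were at least 100 times higher in 1.5 months replicate 1, and 66 had a single count in 3 months replicate 4. The tests and the counts of shared CDR3 sequences were also run without clonotypes at least 100 times higher elsewhere. Chains of other T cells were rare: invariant NKT chains (TRAV11 family with TRAJ18) numbered 0 to 6 clonotypes per library, MAIT chains (TRAV1 with TRAJ33) 0 to 2 and δ chains 2 to 10, and Treg cells have no α chain that defines them.

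Counted per clonotype, the 3 genes ranked 4th (TRAJ23), 8th (TRAJ27) and 9th (TRAJ37) of the α J genes. TRAJ23 made up 4.53% ± 0.281 of functional clonotypes (SD, n = 13), TRAJ27 3.99% ± 0.260 and TRAJ37 3.62% ± 0.251. TRAJ23 stood 0.900 ± 0.401 percentage points under TRAJ31, which was higher in 13 of 13 libraries, but its lead over TRAJ13 (0.321 ± 0.444) was within the spread. TRAJ27 could not be placed apart from TRAJ22 above it (0.0217 ± 0.438). TRAJ37 lay 0.365 ± 0.374 below TRAJ27, lower in 12 of 13 libraries, and 0.472 ± 0.301 above TRAJ40 in 13 of 13. Counted by abundance, they ranked 4th, 5th and 6th, with means of 4.79% ± 0.616, 4.47% ± 1.07 and 4.45% ± 1.37 of functional counts, which include the clones that chose the genes. In the 10 libraries the rule did not use they ranked 4th (4.71% ± 0.408), 6th (4.34% ± 0.823) and 7th (3.94% ± 0.479), and their gaps to the genes next to them, 0.0227 to 0.412 percentage points, were all within the spread of the gap.

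The share of clonotypes differed little between time points. At 1.5 months TRAJ23 made up 4.48% and 4.77% of clonotypes in replicates 1 and 2. At 3 months its shares were 4.15%, 4.96%, 4.58% and 4.36% in replicates 1 to 4, at 5 months 4.32% and 4.25%, and at 7 months 4.62%, 4.47%, 4.41%, 5.12% and 4.36% in replicates 1 to 5. The highest library was thus at 7 months and the lowest at 3 months. Both libraries of 5 months lay below both of 1.5 months and all 5 of 7 months, and inside the range of 3 months. Of 42 J genes with enough clonotypes, 1 (2.38%) had 5 months below both of these groups and 3 (7.14%) had it below or above both, and this split, picked out after its values were seen, was not tested. TRAJ27 shares were 4.04% and 3.85% at 1.5 months, 3.87%, 3.73%, 3.60% and 4.04% at 3 months, 3.95% and 4.2% at 5 months, and 4.05%, 4.17%, 4.57%, 3.65% and 4.11% at 7 months. Replicate 3 of 7 months was the highest for TRAJ27, and the time points overlapped. TRAJ37 shares were 4.00% and 3.29% at 1.5 months, 3.32%, 3.80%, 3.58% and 3.98% at 3 months, 3.66% and 3.75% at 5 months, and 3.85%, 3.65%, 3.25%, 3.49% and 3.46% at 7 months. Replicate 1 of 1.5 months was the highest for TRAJ37 and 7 months replicate 3 the lowest, with 1.5 months replicate 2 the next lowest.

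edgeR's quasi-likelihood test on the number of clonotypes per J gene, with Benjamini-Hochberg adjustment over the 43 J genes, asked whether use changed with time. Of the 43 genes, 0 passed (0%) for any difference between time points, for 7 against 1.5 months, for 7 against 3 months or for a trend over months, and 1, 0, 2 and 2 had an unadjusted p below 0.05. DESeq2 also called 0 in each. From 1.5 to 7 months the log2 change was -0.0039 ± 0.086 (SE) for TRAJ23, 0.067 ± 0.085 for TRAJ27 and -0.046 ± 0.089 for TRAJ37, each with adjusted p = 0.978. From 3 to 7 months it was 0.014 ± 0.072 for TRAJ23 (adjusted p = 0.961), 0.097 ± 0.071 for TRAJ27 (adjusted p = 0.801) and -0.064 ± 0.074 for TRAJ37 (adjusted p = 0.801). None of these exceeded its spread by enough to pass, and the sign for TRAJ23 turned with several settings.

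Counted by abundance, the libraries spread further apart. TRAJ23 took 6.36% and 5.32% of counts at 1.5 months, 4.71%, 4.61%, 4.93% and 4.69% at 3 months, 3.98% and 5.14% at 5 months, and 4.13%, 4.67%, 4.81%, 4.79% and 4.07% at 7 months. Both libraries of 1.5 months were above the other 11, and replicate 1 was 1 of the 3 that chose the genes. TRAJ23 was the 1 of 42 J genes (2.38%) with both above all others, and the 1 of 42 (2.38%) with both above or below, which is a description since the split rests in part on the clone that chose the gene. Without its largest clonotype in each library, TRAJ23 took 4.57% and 4.92% at 1.5 months and 3.81% to 4.60% in the other 11 libraries. The higher of the pair was then replicate 2. Here and in the rest of this paragraph, the clonotype left out still counts in the library total. Shares of the remaining counts would be slightly higher, most so where that clonotype was large. The order of close values, such as 4.57% and 4.60%, may therefore differ on such a total. TRAJ27 took 4.39% and 4.97% at 1.5 months, 3.92%, 3.80%, 3.86% and 6.94% at 3 months, 3.33% and 4.96% at 5 months, and 4.80%, 4.35%, 5.96%, 3.47% and 3.36% at 7 months. Replicate 4 of 3 months, which chose TRAJ27, was the highest, followed by 7 months replicate 3. Without the largest clonotype of each library the order of these turned, with 5.14% in 3 months replicate 4 and 5.4% in 7 months replicate 3. TRAJ37 took 4.70% and 3.35% at 1.5 months, 4.19%, 5.00%, 3.74% and 5.24% at 3 months, 3.48% and 4.12% at 5 months, and 4.06%, 3.53%, 4.14%, 3.76% and 8.58% at 7 months. Replicate 5 of 7 months stood above the other 12, and without the largest clonotype of each library it took 3.98%, inside their range of 3.03% to 4.78%.

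**Figure D1:**
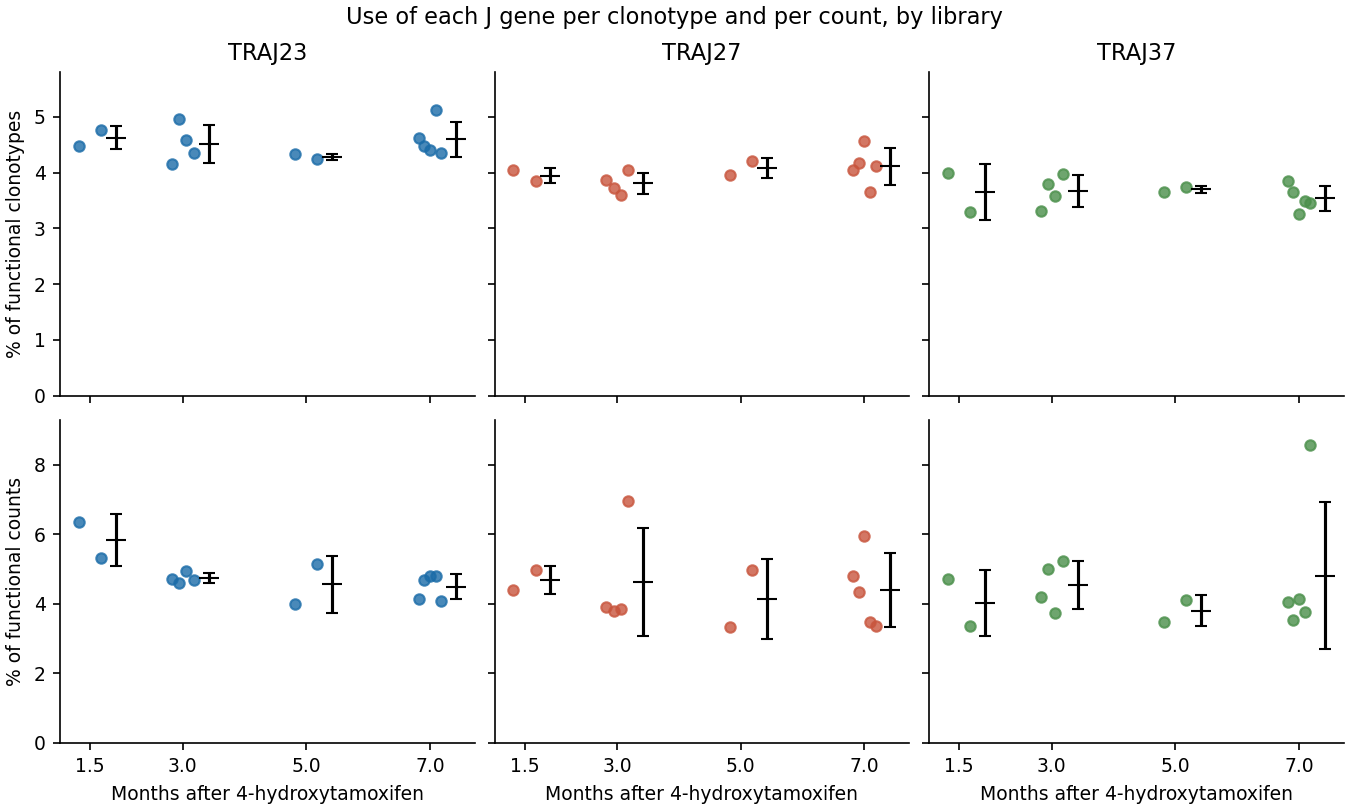
Share of functional clonotypes (upper row, percent) and of functional counts (lower row, percent) of each J gene against months after 4-hydroxytamoxifen, 1 point per library, with group mean and SD in black. Clonotype shares lie between 3.25% and 5.12%, whereas count shares reach 6.36%, 6.94% and 8.58% in the libraries that chose the genes.

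The clones that chose the genes differed in how far they dominated. The TRAJ37 clone, joined to TRAV15-2-DV6-2 (chr14:53649404-53649994), had 24412 counts in 7 months replicate 5. That was 4.59% of the library and 53.5% of all TRAJ37 counts in it. The same V, J and bases had 15 counts in 3 months replicate 1, 1 count each in 1.5 months replicate 2, 3 months replicate 4 and 7 months replicate 4, 2 counts each in 7 months replicates 2 and 3, and 0 in the other libraries. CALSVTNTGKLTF of TRAJ27, joined to TRAV12-2 (chr14:53616315-53616914), had 10257 counts in 3 months replicate 4, 1.81% of the library and 26.0% of TRAJ27 counts. Elsewhere it had 30 counts in 5 months replicate 1, 2 in 7 months replicate 3, 1 each in 3 months replicates 1 and 2 and in 7 months replicate 2, and 0 in the rest. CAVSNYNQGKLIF of TRAJ23, joined to TRAV3-3 (chr14:53665929-53666506), had 9895 counts in 1.5 months replicate 1, 1.79% of the library and 28.1% of TRAJ23 counts. It had 45 counts in 5 months replicate 1, 21 in 3 months replicate 4 and 0 in the other 10 libraries. Each of these clones was therefore large in 1 library only. The low counts of the TRAJ27 and TRAJ23 clones elsewhere include the library pairs with raised overlap. Just outside the rule, the next largest clones of the same time points used TRAJ49 at 1.5 months (1.02%), TRAJ42 at 3 months (1.36%) and TRAJ40 at 7 months (2.33%), and the largest clone at 5 months used TRAJ39 (2.67%).

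**Figure D2:**
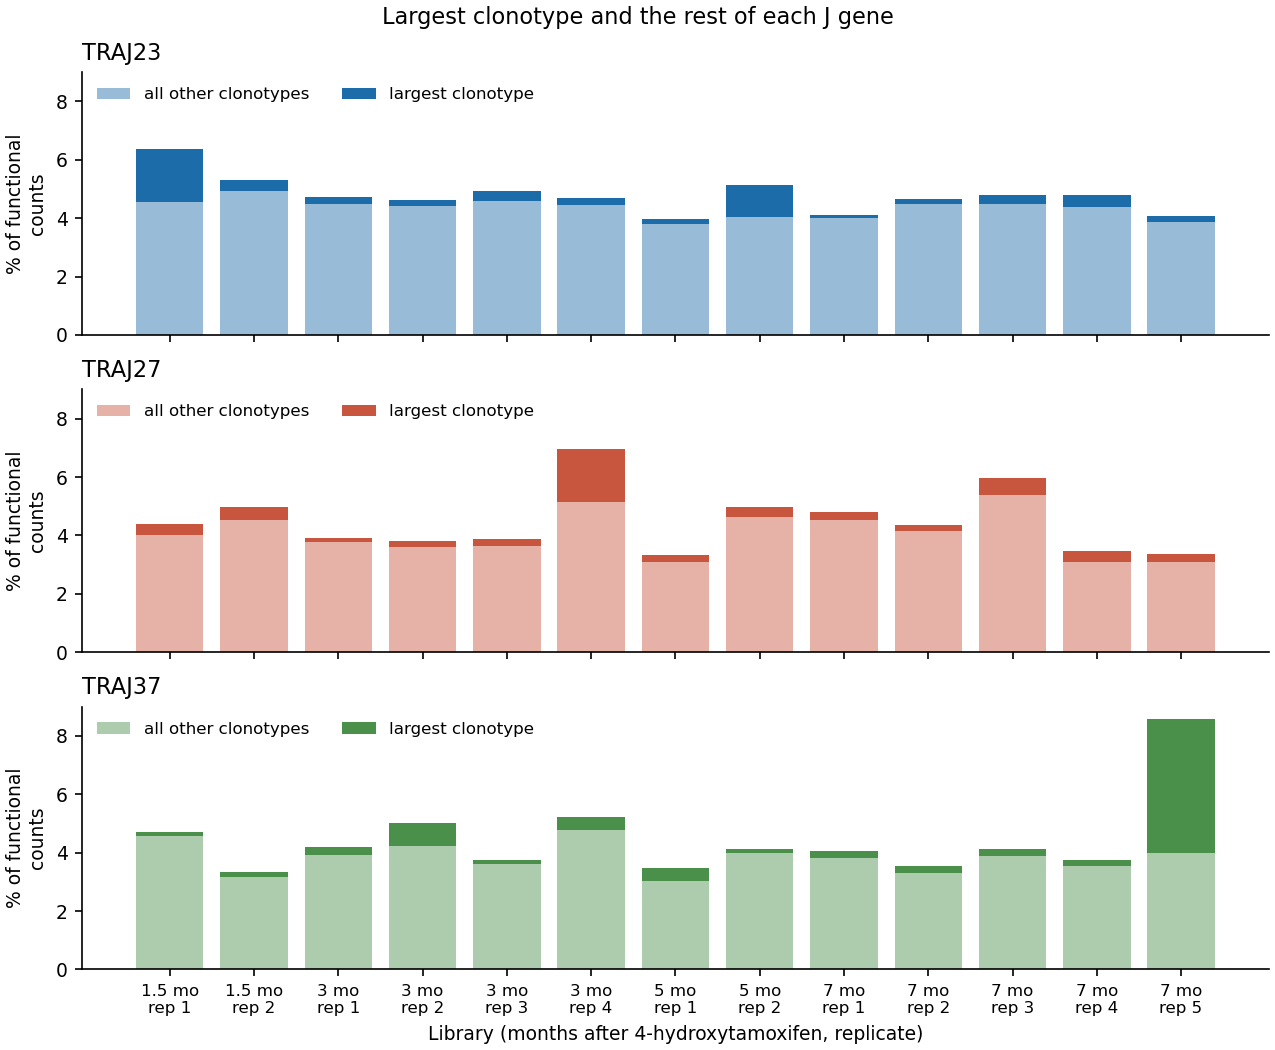
Share of functional counts (percent, from 0) of TRAJ23, TRAJ27 and TRAJ37 in each of the 13 libraries, split into the gene's largest clonotype (dark) and all its other clonotypes (light). The dark part reaches 4.59% for TRAJ37 in 7 months replicate 5 and 1.08% or less in every library the rule did not use.

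Outside the 3 libraries that chose the genes, TRAJ23 again supplied the largest clone of 1 library. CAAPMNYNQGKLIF with TRAV4-3 had 5866 counts in 5 months replicate 2, 1.08% of the library and 21.1% of TRAJ23 counts, and 1 count each in 1.5 months replicate 2 and 3 months replicate 2. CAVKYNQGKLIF with TRAV3D-3, a duplicated relative of TRAV3-3, had 1904 counts in 7 months replicate 4 (0.399%) and 0 in the other 12 libraries. For TRAJ27, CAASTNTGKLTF with TRAV10 had 3597 counts in 3 months replicate 4 (0.634%) and 158 in 5 months replicate 2, and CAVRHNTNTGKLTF with TRAV1 had 2688 counts in 7 months replicate 3 alone (0.558%). For TRAJ37, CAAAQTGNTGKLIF with TRAV7D-2 had 3417 counts in 7 months replicate 5 (0.643%) and 3 in 3 months replicate 1.

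The TRAJ37 clone with TRAV12-2 was large in more than 1 library. With the bases printed above, which include 4 inserted bases, it had 6826 counts in 3 months replicate 2 (0.774%) and 2213 in 7 months replicate 5 (0.416%). It had 4 counts in each of 3 months replicate 1 and 5 months replicate 1 and 1 in 7 months replicate 2. The same residues, from a different base sequence, reached 1001 counts in 1.5 months replicate 2 (0.172%) and 669 in 3 months replicate 4 (0.118%). The loop was thus above 0.1% in 4 libraries from 3 of the 4 time points. A TRAJ27 loop printed with the recurring sequences further on (T27a) was above 0.1%, over all its base sequences, in 7 libraries, which were both of 1.5 months, 3 of 4 of 3 months, both of 5 months and 0 of 5 of 7 months. Of the other loops above 0.1% in 3 or more libraries, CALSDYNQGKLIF of TRAJ23 was so in 3 libraries, all of 7 months (replicates 1, 2 and 5). Another TRAJ23 loop had the opposite pattern, above 0.1% in both libraries of 1.5 months and in 3 months replicate 1. The remaining loops, of TRAJ37, were so in 3 libraries each, from more than 1 time point. These loops were picked out after their values were seen, and their differences between time points were not tested.

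Large clones in general, taken as those above 0.1% of functional counts, numbered 1230 over the 13 libraries, or 1.57% of α clonotypes. TRAJ23 had 55, TRAJ27 54 and TRAJ37 56 of them, each in all 13 libraries, with 2 to 7, 2 to 11 and 1 to 8 per library. Together they were 13.4% of large clones against 12.1% of α clonotypes. The part of a gene's clonotypes that was large was 1.55% for TRAJ23, 1.73% for TRAJ27 and 1.97% for TRAJ37, placing 21st, 16th and 7th of 42 J genes. In the 10 libraries the rule did not use, TRAJ37 had 44 of 976 large clones (4.51%, with 3.55% of clonotypes), TRAJ27 43 (4.41%, with 3.96%) and TRAJ23 43 (4.41%, with 4.56%).

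Clone size was tested in those 10 libraries with limma, on log2 of the mean count per clonotype of a J gene over that of all other clonotypes of the library, adjusted over 42 J genes. Of the 42 genes, 9 passed (21.4%), 4 higher (9.52%) and 5 lower (11.9%), and none of the 3 did. The log2 ratio was 0.05 ± 0.07 (SE) for TRAJ23 (adjusted p = 0.759, above 0 in 6 of 10 libraries), 0.12 ± 0.08 for TRAJ27 (adjusted p = 0.341, 8 of 10) and 0.14 ± 0.07 for TRAJ37 (adjusted p = 0.199, 8 of 10). The setting decided the call. With the median count in place of the mean, limma gave adjusted p = 0.00046 for TRAJ23 (log2 ratio 0.26), 0.011 for TRAJ27 (0.19) and 0.00055 for TRAJ37 (0.31), and 19 of 42 genes passed. With the largest clonotype of every gene left out, TRAJ27 (0.20, adjusted p = 0.011) and TRAJ37 (0.22, adjusted p = 0.0067) passed, TRAJ23 did not, and 21 of 42 genes passed. With a minimum of 10 counts per clonotype the limma log2 ratios shrank to -0.03 for TRAJ23, 0.0095 for TRAJ27 (both adjusted p = 0.925) and 0.08 for TRAJ37 (adjusted p = 0.449), and 6 of 42 genes passed. The median count per clonotype was 68.1 ± 17.6 for TRAJ23, 65.1 ± 18.7 for TRAJ27 and 70.4 ± 21 for TRAJ37 (SD, n = 13), beside 56.2 to 56.4 on average for the other genes. Single-count clonotypes made up 15.8% to 16.8% of each gene, against 17.1% of the others.

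The 3 loops differed in length. TRAJ37 gave the longest CDR3, at 13.9 ± 0.0742 residues (SD, n = 13), against 13.5 ± 0.0824 for TRAJ23 and 13.3 ± 0.110 for TRAJ27. With limma, over 42 J genes, TRAJ37 clonotypes were longer than all others of the same library by 0.427 ± 0.022 residues (SE, adjusted p = 1.85e-12, longer in 13 of 13 libraries). TRAJ27 clonotypes were shorter by 0.162 ± 0.030 residues (adjusted p = 5.48e-05, shorter in 12 of 13). TRAJ23 clonotypes differed by -0.0033 ± 0.025 residues, which did not pass (adjusted p = 0.899). Nearly every J gene differed from the rest in this test, 40 of 42 (95.2%), 23 longer (54.8%) and 17 shorter (40.5%), so that TRAJ23 was 1 of 2 genes that did not. A length of 14 residues was commonest for TRAJ37 (40.9% ± 2.62 of clonotypes) and 13 residues for TRAJ27 (37.4% ± 2.84), while TRAJ23 was split between 13 (34.3% ± 2.67) and 14 (34.7% ± 3.61). CDR3s of 12 residues made up 4.68% ± 1.03 of TRAJ37, 11.2% ± 1.89 of TRAJ23 and 13.8% ± 1.12 of TRAJ27.

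**Figure D3:**
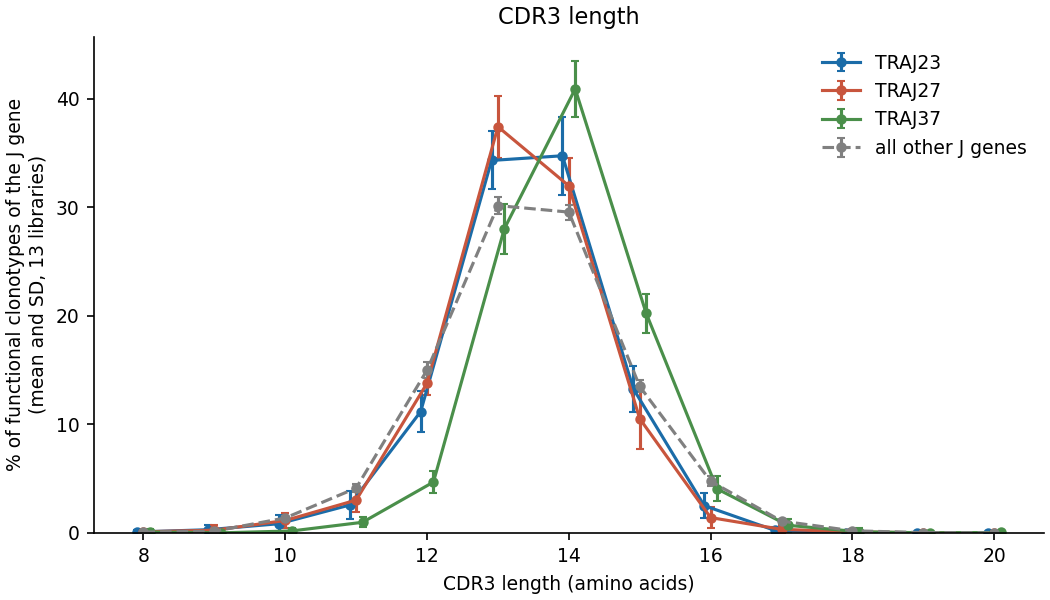
Percent of a J gene's functional clonotypes at each CDR3 length in residues, as mean and SD over 13 libraries, for TRAJ23, TRAJ27, TRAJ37 and all other J genes together (dashed). TRAJ37 peaks at 14 residues (40.9%) and TRAJ27 at 13 (37.4%).

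By the V and J positions in the files, all 3 genes had more inserted bases than other clonotypes, although the TRAJ23 and TRAJ27 calls were lost in several settings. The mean was 2.49 ± 0.159 bases for TRAJ37 (SD, n = 13), 2.30 ± 0.140 for TRAJ23 and 2.29 ± 0.174 for TRAJ27, with about 2.16 for the others. By limma the excess was 0.333 ± 0.046 bases for TRAJ37 (SE, adjusted p = 1.56e-05, higher in 13 of 13 libraries), 0.133 ± 0.043 for TRAJ23 (adjusted p = 0.0126, 11 of 13) and 0.124 ± 0.048 for TRAJ27 (adjusted p = 0.0343, 11 of 13). In all, 25 of 42 J genes passed (59.5%), 9 higher (21.4%) and 16 lower (38.1%). The TRAJ27 call was lost without any 1 of 3 months replicates 2 and 3, 5 months replicate 1 and 7 months replicates 1, 2, 3 and 5 (adjusted p = 0.0520 to 0.0592), and both it (adjusted p = 0.159) and the TRAJ23 call (adjusted p = 0.062) were lost with a minimum of 10 counts per clonotype. The TRAJ27 excess was 0.087 bases without 3 months replicate 2, but 0.119 to 0.123 without any 1 of the others just named. With a minimum of 10 counts it was 0.095 bases, and the TRAJ23 excess was 0.105. In 19.0% ± 2.36 of TRAJ23, 20.4% ± 3.85 of TRAJ27 and 27.1% ± 2.63 of TRAJ37 clonotypes the J stretch began before the germline segment (16.8% ± 0.697 of all other J genes). With those bases counted as inserted, an alternative chosen after seeing the data, the excess was 0.440 ± 0.056 bases for TRAJ37 (adjusted p = 4.35e-06, higher in 13 of 13 libraries) and 0.207 ± 0.048 for TRAJ27 (adjusted p = 0.00094, 13 of 13), whereas the TRAJ23 excess of 0.045 ± 0.044 did not pass (adjusted p = 0.356, 9 of 13), and 27 of 42 genes were called. Bases unlike the germline in the J stretch ran the other way. They occurred in 11.6% ± 1.98 of TRAJ23, 6.46% ± 1.43 of TRAJ27 and 6.44% ± 1.94 of TRAJ37 clonotypes. The value for all other J genes was 21.9% ± 1.06. Such bases were not counted as inserted, and the excess with them counted was not tested. Weighting clonotypes by their counts, in the 10 libraries the rule did not use (also chosen after seeing the data), left 11 of 42 genes called. The limma excess was then 0.337 ± 0.084 bases for TRAJ37 (adjusted p = 0.0117, higher in 10 of 10 libraries), while TRAJ23 (adjusted p = 0.102) and TRAJ27 (adjusted p = 0.261) did not pass. Clonotypes with no inserted base made up 27% ± 3.64 of TRAJ23, 26.5% ± 3.05 of TRAJ27 and 25.3% ± 2.42 of TRAJ37, against 31.1% of other clonotypes.

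Functional and non-functional rearrangements were compared next, since a non-functional chain is not selected for its protein. TRAJ37 made up 3.63% ± 0.251 of functional but 2.75% ± 0.391 of non-functional α clonotypes (SD, n = 13), and the functional share was higher in 13 of 13 libraries. TRAJ27 made up 3.99% ± 0.261 and 3.19% ± 0.580, higher in 12 of 13. TRAJ23 made up 4.53% ± 0.280 and 4.41% ± 0.794, higher in 7 of 13. By limma the log2 ratio of functional to non-functional share was 0.38 ± 0.08 (SE) for TRAJ37 (adjusted p = 0.00040), 0.32 ± 0.09 for TRAJ27 (adjusted p = 0.0051) and 0.04 ± 0.09 for TRAJ23 (adjusted p = 0.697). Of 42 J genes 27 passed (64.3%), 20 with a higher functional share (47.6%). The non-functional numbers were small, 16 to 56 clonotypes per gene and library.

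The genes shared their commonest V partners. TRAV7 supplied 23.2% ± 2.05 of TRAJ37 clonotypes, 21.9% ± 2.92 of TRAJ27 and 19.5% ± 2.02 of TRAJ23 (SD, n = 13), and TRAV14 followed with 13.3% ± 1.90, 15.3% ± 1.97 and 13.5% ± 1.09. Families are used here because many mouse V genes have near-identical copies, so that a row's exact V gene is less certain. TRAJ23 was joined to 94 V genes, TRAJ27 to 99 and TRAJ37 to 94.

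In the limma test of V family shares against the other J genes, 87 of 197 pairs of J gene and V family passed (44.2%), 61 higher (31%) and 26 lower (13.2%). TRAJ23, TRAJ27 and TRAJ37 had 5 of 9, 4 of 8 and 1 of 8 families called, with TRAV7 higher in both TRAJ27 and TRAJ37 and TRAV4 lower in both TRAJ23 and TRAJ27. TRAJ23 had 4 of 9 tested families higher and 1 lower. TRAV8 made up 4.12% ± 1.35 of TRAJ23 clonotypes against 2.80% ± 0.239 of other J genes (log2 ratio 0.54 ± 0.12, SE, adjusted p = 0.0017, higher in 11 of 13 libraries). TRAV3, the family of the largest TRAJ23 clone, made up 6.74% ± 1.25 against 5.50% ± 0.259 (0.31 ± 0.08, adjusted p = 0.0033, 11 of 13), and TRAV12 13.1% ± 1.59 against 11.4% ± 0.496 (0.21 ± 0.07, adjusted p = 0.014, 11 of 13). TRAV4 was lower in 13 of 13 libraries, with 7.55% ± 1.52 against 10.2% ± 0.678 (-0.42 ± 0.09, adjusted p = 0.00074). TRAJ27 had 2 of 8 families higher and 2 lower. TRAV13 made up 8.76% ± 1.83 against 7.16% ± 0.50 (0.30 ± 0.08, adjusted p = 0.0045, higher in 12 of 13), and TRAV7 was higher by 0.23 ± 0.07 (adjusted p = 0.0099, 12 of 13). TRAV12, the family of the largest TRAJ27 clone, was lower with 9.45% ± 2.25 against 11.6% ± 0.498 (-0.30 ± 0.09, adjusted p = 0.013), and TRAV4 was lower by 0.25 ± 0.08 on the log2 scale (adjusted p = 0.020). TRAJ37 had 1 of 8 families higher, TRAV7, with 23.2% against 18.7% ± 0.721 (0.32 ± 0.06, adjusted p = 0.00050, higher in 12 of 13), and 0 lower, with no family below an adjusted p of 0.05 in that direction and TRAV14 at adjusted p = 0.071.

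**Figure D4:**
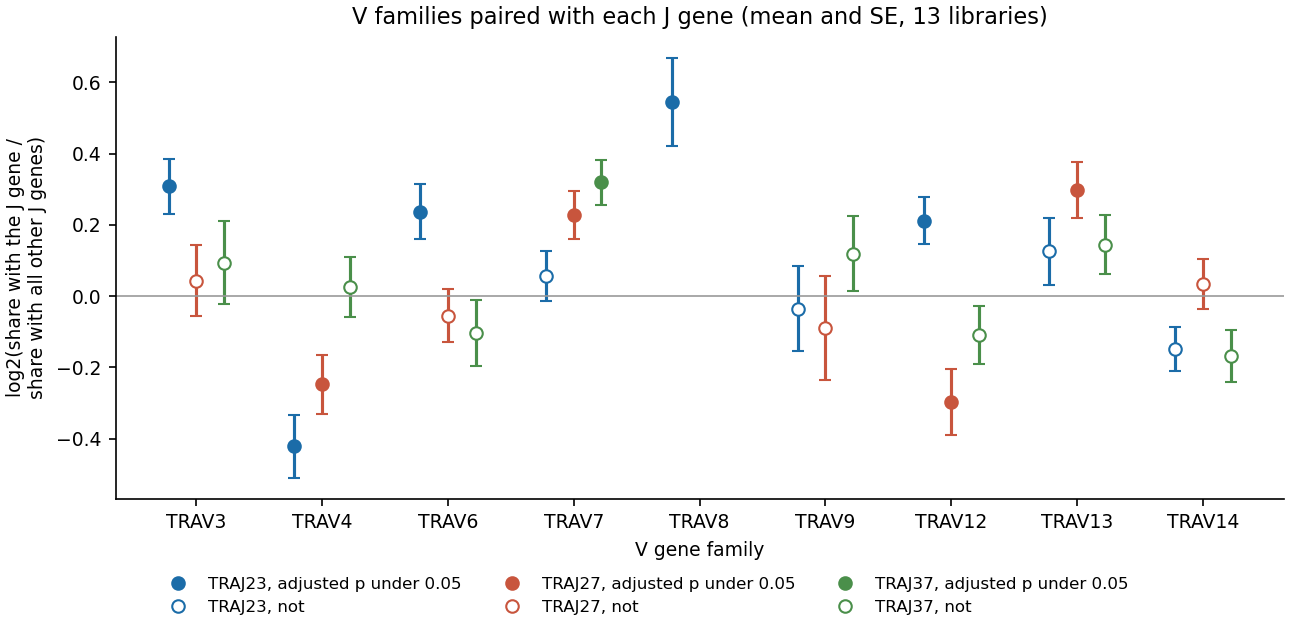
Log2 ratio of a V family's share among clonotypes of TRAJ23, TRAJ27 or TRAJ37 to its share among all other J genes, as mean and SE over 13 libraries, with filled points where limma's adjusted p was below 0.05. TRAJ23 has 5 filled points, TRAJ27 has 4 and TRAJ37 has 1.

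Among the large clones, TRAV14 was the commonest family for TRAJ23 (13 of 55) and shared the first place with TRAV7 for TRAJ27 (11 of 54 each), while TRAV12 led for TRAJ37, ahead of TRAV7 (12 of 56). For TRAJ37, 17 of 56 large clones (30.4%) used TRAV12, which supplied 10.8% of its clonotypes and 13.3% of the large clones of other J genes. These 17 came from 12 libraries, held 11 distinct residue sequences, and 13 of them had 13 residues. TRAV12 was used by 10 of 55 large TRAJ23 clones (18.2%) and 8 of 54 large TRAJ27 clones (14.8%). TRAJ23 large clones used TRAV3 in 8 of 55 (14.5%), against 6.77% of its clonotypes and 7.06% of the large clones of other J genes. These shares rest on the sizes that chose the genes and were not tested.

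CDR3 amino-acid sequences of these genes recurred between libraries. TRAJ37 had 1302 distinct sequences, of which 444 (34.1%) were in 2 or more libraries, the highest part among 42 J genes. TRAJ27 had 501 of 1553 (32.3%), ranking 2nd, and TRAJ23 523 of 1732 (30.2%), ranking 13th, beside 28.9% over all α sequences. In 7 or more libraries were 54 TRAJ37 sequences (4.15%, rank 2), 54 of TRAJ27 (3.48%, rank 7) and 65 of TRAJ23 (3.75%, rank 4), beside 2.52% over all. Sequences in 7 or more libraries had fewer inserted bases than those in a single library. The means were 1.28 against 3.67 for TRAJ37, 1.40 against 3.19 for TRAJ27 and 1.43 against 3.29 for TRAJ23. Over all α sequences the same contrast held, with 1.07 against 3.00. Those of the 3 genes in 7 or more libraries were met in 5.28 to 6.54 different base sequences on average, beside 6.15 over all. With clonotypes at least 100 times higher elsewhere removed, the part in 2 or more libraries was 31.5% for TRAJ37 (rank 1), 30.0% for TRAJ27 (rank 3) and 27.8% for TRAJ23 (rank 11), and 3, 3 and 2 sequences remained in all 13. The part in 7 or more libraries was then 3.84% (rank 2), 3.09% (rank 9) and 3.75% (rank 3). Without single-count rows it was 30.5% (rank 3), 29.4% (rank 7) and 29.2% (rank 9), with 3, 3 and 1 sequences in all 13, and in 7 or more libraries 3.88% (rank 6), 3.06% (rank 8) and 4.06% (rank 4). Leaving out 3 months replicate 4 put TRAJ37 at rank 8 for sequences in 7 or more libraries (2.91%), and leaving out 1.5 months replicate 1 or 5 months replicate 1 put it at rank 6 (3.15% and 3.13%). These alternatives were chosen after seeing the data. J genes with more clonotypes have more chances of a match, and the ranks were not adjusted for that.

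**Figure D5:**
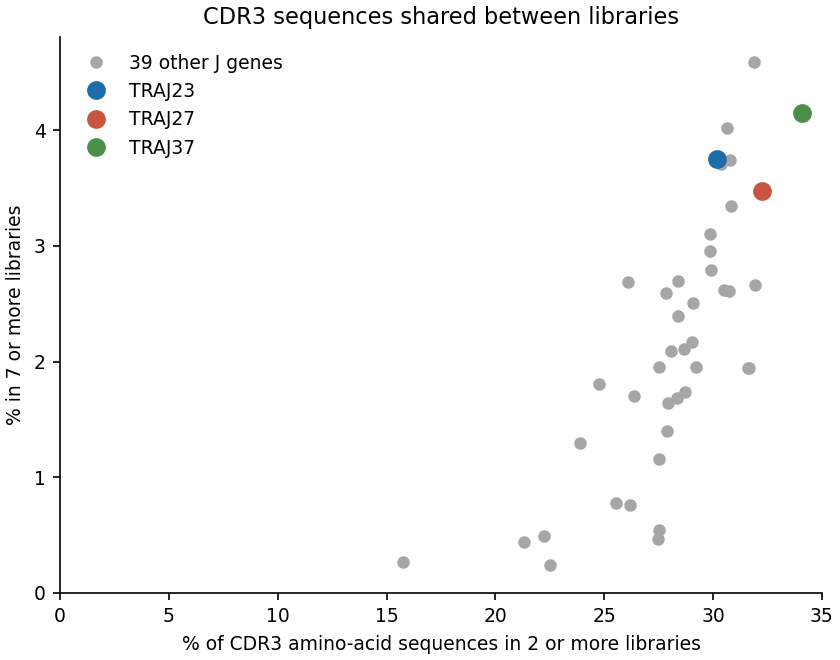
Percent of a J gene's distinct CDR3 amino-acid sequences found in 2 or more libraries (horizontal) and in 7 or more (vertical), 1 point per J gene. TRAJ37 lies farthest right at 34.1% and 4.15%, followed by TRAJ27 at 32.3%, and TRAJ23 is at 30.2% and 3.75%.

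Each gene had sequences in all 13 libraries, 4 for TRAJ37 and 3 each for TRAJ27 and TRAJ23 (65 over all α J genes). For 3 of these 10, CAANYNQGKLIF and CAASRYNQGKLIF of TRAJ23 and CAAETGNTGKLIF of TRAJ37, presence in 1 of the libraries rested on a single count, while the other 7 had at least 8 counts in each library. Of the 10, the loops called T27a, T27b and T37d are shown by their most abundant base sequence, beside the leading loops of TRAJ37 and TRAJ23. The bases from the given J start are in capitals. Those shown are examples, since all 10 recurred in all 13 libraries. In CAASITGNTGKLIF the capitals begin 2 bases before the germline segment.
T27a: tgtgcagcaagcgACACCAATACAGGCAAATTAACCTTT
T27b: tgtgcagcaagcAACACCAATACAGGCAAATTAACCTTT
T37d: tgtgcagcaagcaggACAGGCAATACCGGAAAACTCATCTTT
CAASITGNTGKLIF: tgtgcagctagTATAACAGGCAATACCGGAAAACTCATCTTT
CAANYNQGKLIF: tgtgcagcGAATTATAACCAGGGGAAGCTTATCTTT
The most abundant was T27a of TRAJ27, with a lowest share of 0.0144%, a median of 0.106% and a highest of 0.448% in 1.5 months replicate 2. T27b, also of TRAJ27, had a median of 0.0403% and a highest value of 0.256%, and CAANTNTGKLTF a median of 0.0259% and a highest value of 0.171%. Of the TRAJ37 sequences, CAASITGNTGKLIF ranged from 0.0124% to 0.295% (median 0.0687%) and came from 13 base sequences, and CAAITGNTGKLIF ranged from 0.0117% to 0.145% (median 0.0448%). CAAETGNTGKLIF had a median of 0.0548% and a highest value of 0.215%. TRAJ23 was represented by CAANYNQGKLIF (median 0.0560%, highest 0.260%), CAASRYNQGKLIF (0.0197% and 0.151%) and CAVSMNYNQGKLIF (0.0303% and 0.0973%). TRAV7 was among the 3 commonest V families of each of them. The median share was below 0.1% for 9 of the 10 sequences (the other TRAJ37 loop, T37d, was at 0.0300%), and none was among the 3 largest clones of its gene.

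The largest clones had relatives in other libraries at the residue level. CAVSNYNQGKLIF was present in 10 libraries from 5 base sequences, at up to 0.113% outside 1.5 months replicate 1, and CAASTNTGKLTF in 11 libraries from 5 base sequences, at up to 0.147% outside 3 months replicate 4. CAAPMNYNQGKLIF was in 9 libraries and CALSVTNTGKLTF in 8, at up to 0.104% in 5 months replicate 2 with other bases. The TRAJ37 clone with TRAV15-2-DV6-2 had its residues in 8 libraries, but at no more than 0.00379% outside 7 months replicate 5.

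Over the 13 libraries, the J genes whose log2 share of clonotypes followed TRAJ23 most closely were TRAJ44 (Spearman's rho 0.77) and TRAJ35 (0.49). For TRAJ27 they were TRAJ34 (0.55) and TRAJ11 (0.41), and for TRAJ37 TRAJ15 (0.58) and TRAJ6 (0.53). These are the highest of 41 coefficients for each gene, the shares of a library add up to a fixed total, and the values are a description only.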

How the data were processed

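TCRα cDNA was amplified by 5′ RACE from sorted rescued Treg cells and sequenced on a MiSeq. The authors aligned reads and assembled clonotypes with MiXCR 3.0.13 and corrected them by frequency with VDJtools 1.2.1. The deposited files, 1 per library, give each clonotype's count, its fraction of the library and its V, J and CDR3, with segment positions in the CDR3 as other deposited numbers. Counts were used as deposited. The deposited fractions were not used, and shares were recomputed over functional rows (letters A to Z only in the residue sequence), including 96 rows that were not TRAV joined to TRAJ. Inserted bases are those between the V and J positions, missing in 54 rows. The members and lists were chosen with earlier results of these data known.

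Clonotype numbers per J gene were tested with edgeR 4.0.16 (quasi-likelihood, TMM, all 13 libraries in 1 model), and within-library ratios or differences with limma 3.58.1 against 0, over 42 J genes with at least 20 clonotypes in every library (V families: pairs with a mean of at least 10). Shares in ratios had 0.5 clonotypes added. The threshold was an adjusted p (Benjamini-Hochberg) below 0.05. Named were, per gene, the 3 largest clonotypes, the CDR3s in most libraries (3, with 4 for TRAJ37, all in 13), up to 3 V families per direction and the 2 J genes most alike. Germline segments came from GENCODE M21 (GRCm38). Tests were checked on simulated data with the same spread for every J gene, in which 87% to 100% of the changes put in were recovered. Of the calls, 12.1% were false for the trend over months and 4.4% to 6.6% for the other tests. DESeq2 1.42.0, other minimums, exact sign-flip permutation tests and leaving out each library were alternatives.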

Additional observations from a re-analysis of the deposited data

Results flagged for a closer look

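In the 3- and 7-month groups, 48 sets of values were searched for a library far from the others of its time point, and 6 were found. Chance gives about 1 in 20 sets. Of the 6, 4 include the clonotype that chose the gene and are a description only, 1 is from such a library without that clonotype, and 1 is from another library. In 3 months replicate 4, TRAJ27 took 6.94% of counts where the other 3 libraries had 3.80% to 3.92%, its largest clonotype took 1.81% against 0.151% to 0.214%, and the ratio of its mean clone size, without that clonotype, to other genes was 1.32 against 0.974 to 1.02. This is the library that chose TRAJ27 and the one with raised overlap with 2 others. In 7 months replicate 5, which chose TRAJ37, that gene took 8.58% of counts against 3.53% to 4.14%, and its largest clonotype 4.59% against 0.214% to 0.247%. In 3 months replicate 2, TRAJ27 had 2.80 inserted bases on average, against 2.19 to 2.26 in the other 3 libraries.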

How the results depend on the processing

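For use over time, 0 of 43 J genes (44 with no filter) passed with DESeq2, library totals, no filter, a replicate block, non-functional rows kept, a minimum of 2 or 10 counts, amino-acid clonotypes, clonotypes 100 times higher elsewhere removed, any library left out or, for the comparisons of 2 time points, only those. Whether the replicate numbers pair the libraries could not be settled. Of 14 same-numbered pairs 7 had r over 0.1 (mean 0.089), and 4 of 12 libraries matched their own number best. The values compared were deviations from the group mean. In a group of 2 libraries these mirror each other by construction, so that the check is weak there. The replicate block left 0 genes called. The log2 change of TRAJ23, close to 0, turned sign with several settings, and the cause was not tested. For 7 against 1.5 months it was 0.0030 with non-functional rows kept, 0.0013 with a minimum of 10 counts, 0.041 with amino-acid clonotypes, 0.0010 with clonotypes higher elsewhere removed and 0.0045 with the 2 time points alone, and for 7 against 3 months -0.0013 with no filter and -0.0084 with clonotypes higher elsewhere removed. Its trend per month was 0.00063 with DESeq2, 0.00034 with library totals, 0.0033 with non-functional rows kept, 0.00040 with a minimum of 10 counts and 0.0091 with amino-acid clonotypes. Leaving out each library gave -0.058 to 0.046 (7 against 1.5 months), -0.028 to 0.060 (7 against 3 months) and -0.0093 to 0.0067 (trend) for TRAJ23, and -0.17 to 0.10 for TRAJ37 at 7 against 1.5 months, positive without 1.5 months replicate 1. At 7 against 3 months the range for TRAJ37 was -0.11 to -0.030. For TRAJ27 the ranges were 0.016 to 0.10 (7 against 1.5 months) and 0.041 to 0.13 (7 against 3 months), each lowest without 7 months replicate 3. The log2 ratio of TRAJ23 clone size was -0.032 with a minimum of 10 counts, its length difference 0.0040 with clonotypes higher elsewhere removed, 0.028 weighted by counts in the 10 libraries the rule did not use and -0.016 to 0.0071 leaving out libraries, and its functional ratio -0.0067 to 0.073. With a minimum of 2 counts the TRAJ23 functional ratio was 0.17, which did not pass either (limma, adjusted p = 0.141).

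Clone size calls numbered 19 of 42 with the median count and 21 without the largest clonotype, inserted-base calls 9 weighted by counts in all 13 libraries, which takes in the clone sizes that chose the genes (TRAJ37 adjusted p = 0.066), and 11 in the 10 libraries the rule did not use, and V family calls 132 of 333 pairs with a mean of at least 5 clonotypes. Leaving out each library gave 7 to 10 clone size calls, 40 length calls, 22 to 27 inserted-base calls, 24 to 29 functional calls and 82 to 90 V family calls. The named V family calls and the length and functional calls of TRAJ27 and TRAJ37 passed in every setting run, and for length weighted by counts this also held in the 10 libraries alone (adjusted p = 0.0086 for TRAJ27 and 3.87e-05 for TRAJ37). Single-count clonotypes were 17.1% of other genes' rows, and 16 to 56 non-functional clonotypes per gene limit the functional comparison.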

Other observations

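TRAV11, the V family of invariant NKT cell chains, made up 1.98% ± 1.14 of TRAJ27 clonotypes (SD, n = 13 libraries), ranking 2nd among 42 J genes after TRAJ32 (3.59% ± 2.13) and ahead of TRAJ18 (1.72% ± 1.2). TRAJ26, TRAJ35, TRAJ33 and TRAJ34 followed with 1.42% to 1.46%, so that the gaps between TRAJ27 and these genes or TRAJ18 were within the spread. With TRAJ34, as with TRAJ27, TRAV11 was found in all 13 libraries. TRAV11 ranged from 0.469% to 3.97% in TRAJ27 and from 0.255% to 0.660% in all other J genes together, higher in TRAJ27 in 13 of 13 libraries. Several of those other J genes had no TRAV11 clonotype, which lowers their joint share. The 63 clonotypes held 41 distinct residue sequences. With 4.85 clonotypes per library the pair fell below the minimum for testing, and it was picked out after its values were seen.

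TRAJ23 clonotypes ending in the codon TTG (leucine) in place of TTT (phenylalanine) numbered 101 (2.85%), in all 13 libraries, against 10 for TRAJ27 and 6 for TRAJ37. Their median count was 1 and their highest 3, whereas TTT-ending TRAJ23 clonotypes had a median of 69. Their part in the TRAJ23 clonotype share was not tested beyond the minimum of 2 or 10 counts.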
